A study of Mus musculus with 12 samples.

Results

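Ddx4, Dazl, Dnd1 and Elavl2 encode RNA-binding proteins made in the germ cells of the mouse testis, and their transcripts were examined here as a reading of total germ cell content. Every probe set annotated to exactly 1 of these 4 genes was taken, whatever its values, which gave 9 of the 45037 probe sets on the array other than controls. Of these, 1 was annotated to Ddx4, 2 to Dazl, 1 to Dnd1 and 5 to Elavl2. The arrays were Affymetrix mouse expression arrays, on which a probe set is a group of short oligonucleotides directed at the same transcript. RNA came from whole testes at postnatal day 7, from Sohlh1-/- mice, Sohlh2-/- mice and wild-type mice whose hybrid background was C57BL/6, 129S5, SvEvBrd. Each genotype had 4 arrays, and each array held RNA of 3 testes pooled from 3 animals, so that 12 animals stood behind a group and the spread between arrays was one between pools. The labels name no deletion limited to a tissue or cell type. Germ cells and the somatic cells around them both contributed RNA.

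Ddx4 is a DEAD-box RNA helicase, the mouse relative of fly Vasa, and sits in the cytoplasmic granules where germ cells process small RNAs. Dazl binds messenger RNAs near their tails and promotes their translation, and Dnd1 acts with Nanos proteins and the deadenylase complex to steer mRNA decay and keep primordial germ cells alive. Elavl2 binds AU-rich elements and belongs to a family best known from neurons. In the testis of the first week the germ cells are mostly spermatogonia, enclosed in cords by Sertoli cells. Sohlh1 and Sohlh2 are basic helix-loop-helix transcription factors of spermatogonia, a class of protein that binds the 6-base E-box, and both are known to be needed for spermatogonia to differentiate.

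Because the deleted factors belong to a class that binds the E-box, the starts of Ddx4, Dazl and Elavl2 were searched for it. RefSeq windows on build GRCm38.p6, covering 250 bases before and 50 bases after an annotated start, were taken for these 3 of the 4 genes. Dnd1 was left out of the search, so nothing is said of its start. They are given here from 5′ to 3′ on the strand of the gene, with the motif CANNTG, searched on both strands, in capitals. The Ddx4 window was chr13:112652261-112652560, the Dazl window chr17:50293571-50293870 and the most upstream of 6 Elavl2 windows chr4:91399935-91400234, all on the minus strand.
Ddx4: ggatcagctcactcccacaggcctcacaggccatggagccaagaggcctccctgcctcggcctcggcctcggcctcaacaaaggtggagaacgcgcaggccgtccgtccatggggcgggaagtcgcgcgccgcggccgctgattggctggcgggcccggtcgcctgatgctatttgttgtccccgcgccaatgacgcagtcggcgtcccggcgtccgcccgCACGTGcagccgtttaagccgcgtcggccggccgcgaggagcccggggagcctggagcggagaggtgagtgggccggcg
Dazl: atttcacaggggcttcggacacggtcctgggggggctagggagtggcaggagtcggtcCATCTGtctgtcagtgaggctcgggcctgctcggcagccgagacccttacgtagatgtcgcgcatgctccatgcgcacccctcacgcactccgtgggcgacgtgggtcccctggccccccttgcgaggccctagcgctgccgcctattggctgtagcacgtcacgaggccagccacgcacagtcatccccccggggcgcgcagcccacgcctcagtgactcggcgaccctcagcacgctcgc
Elavl2: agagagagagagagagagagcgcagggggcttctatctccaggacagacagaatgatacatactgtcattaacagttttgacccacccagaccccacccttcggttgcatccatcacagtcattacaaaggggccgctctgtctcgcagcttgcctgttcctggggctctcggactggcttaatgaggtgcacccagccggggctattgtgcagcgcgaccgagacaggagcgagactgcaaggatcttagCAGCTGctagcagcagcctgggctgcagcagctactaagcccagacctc
Each of the printed windows held 1 match, which read CACGTG in Ddx4, CATCTG in Dazl and CAGCTG in Elavl2. Counting the start as 0, the first base of the match lay at -29 in Ddx4 and at -192 in Dazl, and in Elavl2 the match lay just past the start. Each of the other Elavl2 windows also held 1 match. A match was common, since 23756 of 32851 windows of that length (72.3%) held at least 1, with a median of 1. The windows of Kit, a receptor of differentiating spermatogonia, held 1 match each and that of Crabp1, a retinoic acid binding protein, held 0. The match is a description of the letters in the window and was not set against binding data.

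Values were MAS5 signals on a linear scale, all arrays being scaled to the same trimmed mean, and median signals per array ran from 76.6 to 90.7. Differences were tested with limma on log2(signal + 14.2) over the 28694 probe sets that lay above a signal of 48.6 on at least 4 arrays, and a probe set was called when its adjusted p, taken over all of them, was under 0.05. The targeted genes went against the labels on 2 arrays. The array labelled Sohlh1 knockout 5 had a Sohlh1 signal of 595 and a Sohlh2 signal of 94.4, while that labelled Sohlh2 knockout 1 had a Sohlh1 signal of 126 and a Sohlh2 signal of 1847. The other Sohlh1 knockout arrays had Sohlh1 signals of 50.2 to 104 and Sohlh2 signals of 1556 to 1783. The other Sohlh2 knockout arrays had Sohlh1 signals of 465 to 563 and Sohlh2 signals of 73.2 to 157. Wild-type arrays had 1125 to 1233 for Sohlh1 and 885 to 1200 for Sohlh2. In both genes each of the 2 arrays was thus nearer to the other knockout than to its own label. Groups below follow the labels. If the 2 arrays were exchanged, each knockout would still have 4 arrays. The log2 difference between the mean of both knockouts and wild type would then be the same, but its error and p would not. RNA quality also set arrays apart: the 3' to 5' signal ratio of the Gapdh and Actb control probe sets, averaged over both, was 1.56 on Sohlh1 knockout 2 and 2.41 on Sohlh2 knockout 1, against 0.987 to 1.08 on the others. Results were therefore also computed without the 2 arrays of doubted label, without the 2 of high ratio, and without all 3 of these arrays.

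None of the 4 genes changed at the threshold in either knockout, and 3 of them lay close to the wild-type level by their brightest probe set. The Ddx4 signal averaged 108% of wild type in Sohlh1 knockout testes and 105% in Sohlh2 knockout testes. The brighter Dazl probe set averaged 92.6% and 97.7%, and Dnd1 averaged 101% and 96.2%. Elavl2 was lower, at 83.7% and 85.9% by its brightest probe set, and its calls depended on which arrays were used. The other Dazl probe set did not lie close to wild type: it averaged 71.3% and 78.5%, though it was not called. On the same arrays Kit averaged 26.1% and 25.4% of wild type and Crabp1 17.8% and 21.0%. Of the 8 member probe sets tested, 0 were called in Sohlh1 knockout against wild type, where 2.09% of all tested probe sets were called, and 0 in Sohlh2 knockout against wild type, where 1.55% were. In the mean of both knockouts against wild type 0 of 8 were called, beside 3.49% of all, and between the knockouts 0 of 8, beside 0%. At an unadjusted p under 0.05 the limma fits held 3, 1, 4 and 1 of the 8 in those comparisons, against 4286, 3870, 4930 and 767 of all 28694. The comparison between the knockouts takes the labels as given. Without the 2 arrays of doubted label 9 of all probe sets were called there, and 0 of the members. In whole testes, fewer cells of a type and less RNA per cell cannot be told apart.

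**Figure D1:**
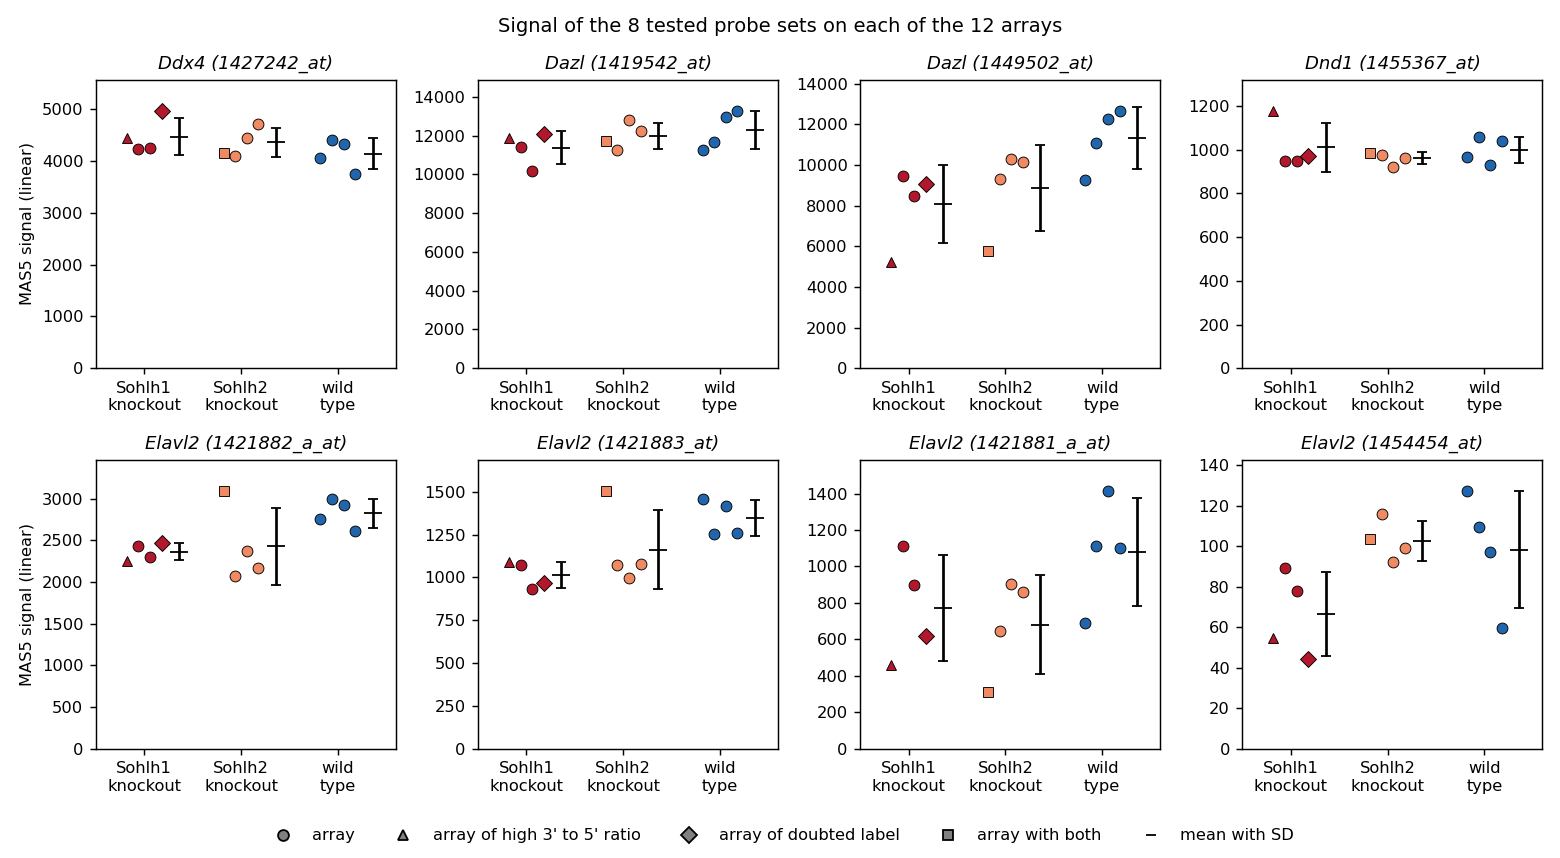
Linear MAS5 signal (y axis) of the 8 tested probe sets on each of the 12 arrays, by genotype (x axis). Points are arrays, with shapes for the arrays of high 3' to 5' ratio, of doubted label or of both, and bars are the mean with SD of 4 arrays. The Ddx4 points sit at 3752 to 4970 in all 3 genotypes, while the Elavl2 1421883_at points of Sohlh1 knockout, 932 to 1088, all lie under those of wild type, 1252 to 1458.

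Ddx4 was read by 1 probe set, 1427242_at. Its signals were 4448, 4222, 4244 and 4970 on the Sohlh1 knockout arrays, 4154, 4103, 4448 and 4722 on the Sohlh2 knockout arrays and 4059, 4408, 4329 and 3752 on the wild-type arrays. The 3 ranges overlapped, and the highest value belonged to Sohlh1 knockout 5, an array of doubted label. The group means were 4471 ± 348 in Sohlh1 knockout, 4357 ± 287 in Sohlh2 knockout and 4137 ± 297 in wild type (SD, n = 4 each), a spread of 7.78%, 6.59% and 7.18% of the mean. The log2 difference was 0.11 ± 0.09 (SE) for Sohlh1 knockout against wild type (limma, adjusted p = 0.588) and 0.07 ± 0.09 for Sohlh2 knockout against wild type (limma, adjusted p = 0.751). For the mean of both knockouts the 95% interval ran from 95.5% to 119% of wild type.

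Dazl was read by 2 probe sets that did not give the same picture. The brighter, 1419542_at, had 11859, 11390, 10191 and 12058 on the Sohlh1 knockout arrays, 11737, 11233, 12788 and 12254 on the Sohlh2 knockout arrays and 11250, 11647, 12940 and 13287 on the wild-type arrays. The groups overlapped, and all 12 arrays lay between 10191 and 13287. The log2 difference was -0.11 ± 0.08 for Sohlh1 knockout (limma, adjusted p = 0.582) and -0.03 ± 0.08 for Sohlh2 knockout (limma, adjusted p = 0.911). The mean of both knockouts was 95.2% of wild type, with a 95% interval of 85.5% to 106%.

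The other Dazl probe set, 1449502_at, had 5240, 9472, 8488 and 9056 on the Sohlh1 knockout arrays, 5775, 9318, 10270 and 10165 on the Sohlh2 knockout arrays and 9261, 11067, 12260 and 12665 on the wild-type arrays. The lowest array of each knockout was the one with the high 3' to 5' ratio, Sohlh1 knockout 2 and Sohlh2 knockout 1. With all arrays the log2 difference was -0.44 for the mean of both knockouts (limma, adjusted p = 0.198), and 73.5% of wild type with a 95% interval of 56.8% to 95.1%. Without the 2 arrays of high ratio it was -0.25 (limma, adjusted p = 0.0943), and it was not called under any setting tried. Within an array, 1449502_at read 44.2% of 1419542_at on Sohlh1 knockout 2 and 49.2% on Sohlh2 knockout 1. On the other knockout arrays that share was 75.1% to 83.3%, against 82.3% on wild type 3 and 94.7% to 95.3% on the other wild-type arrays. Where the probes lie in the transcript is not stated in the labels, and the part of RNA quality in the gap between the probe sets was not tested beyond these values.

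Dnd1 was read by 1 probe set, 1455367_at. It had 1178, 949, 947 and 969 on the Sohlh1 knockout arrays, 983, 976, 922 and 961 on the Sohlh2 knockout arrays and 966, 1058, 930 and 1040 on the wild-type arrays. The values overlapped across genotypes and 11 of the 12 fell between 922 and 1058, with Sohlh1 knockout 2 above them. The log2 difference was 0.01 ± 0.10 for Sohlh1 knockout (limma, adjusted p = 0.967) and -0.05 ± 0.10 for Sohlh2 knockout (limma, adjusted p = 0.853). The mean of both knockouts was 98.6% of wild type, with a 95% interval of 87.1% to 112%. The Sohlh1 difference was too close to 0 to have a stable sign: it was -0.06 without Sohlh1 knockout 2 and -0.02 without wild type 5.

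By brightest probe set, Elavl2 was the member lowest relative to wild type in both knockouts. Its brightest probe set, 1421882_a_at, had 2252, 2431, 2303 and 2473 on the Sohlh1 knockout arrays, 3096, 2075, 2377 and 2164 on the Sohlh2 knockout arrays and 2757, 3004, 2927 and 2620 on the wild-type arrays. All 4 Sohlh1 knockout arrays lay below all 4 wild-type arrays. Of the Sohlh2 knockout arrays 3 did so too, while Sohlh2 knockout 1, the array of doubted label and highest 3' to 5' ratio, was the highest of all 12. The log2 difference was -0.26 ± 0.11 for Sohlh1 knockout (limma, adjusted p = 0.301), -0.23 ± 0.11 for Sohlh2 knockout (limma, adjusted p = 0.387) and -0.24 ± 0.10 for the mean of both (limma, adjusted p = 0.207).

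The next Elavl2 probe set, 1421883_at, had 1088, 1070, 932 and 970 on the Sohlh1 knockout arrays, 1505, 1073, 994 and 1079 on the Sohlh2 knockout arrays and 1458, 1252, 1418 and 1262 on the wild-type arrays. The pattern was that of the brightest probe set: Sohlh1 knockout lay below wild type without overlap, and Sohlh2 knockout did so except for replicate 1. Non-overlapping groups, in either direction, were found for 11.2% of all tested probe sets in Sohlh1 knockout against wild type and for 2 of the 8 member probe sets, both of them Elavl2 and both lower, where 6.08% of all were apart and lower. The log2 difference was -0.40 ± 0.12 for Sohlh1 knockout (limma, unadjusted p = 0.00558, adjusted p = 0.125), -0.23 ± 0.12 for Sohlh2 knockout (limma, adjusted p = 0.454) and -0.31 ± 0.11 for the mean of both (limma, adjusted p = 0.136). Without Sohlh2 knockout 1 the Sohlh2 difference was -0.36 (limma, adjusted p = 0.0948, in a range of 0.0516 to 0.663 over the settings tried).

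These Elavl2 results changed side of the threshold with the arrays used. Without Sohlh2 knockout 1 alone, the mean of both knockouts against wild type was -0.31 for 1421882_a_at (limma, adjusted p = 0.0208) and -0.38 for 1421883_at (limma, adjusted p = 0.0135), where 4.63% of all probe sets were called. Without the 2 arrays of high ratio the values were -0.29 (limma, adjusted p = 0.0188) and -0.40 (limma, adjusted p = 0.00766), where 5.46% of all were called. Without the 2 arrays of doubted label they were -0.32 (limma, adjusted p = 0.0273) and -0.37 (limma, adjusted p = 0.0256), where 4.04% were, and without all 3 arrays -0.30 (limma, adjusted p = 0.028) and -0.39 (limma, adjusted p = 0.0168), where 4.7% were. Over all settings tried, 1421882_a_at was called in 7 of 27 with adjusted p between 0.0163 and 0.417, and 1421883_at in 8 of 26 with adjusted p between 0.00429 and 0.328. The difference was below 0 in every one of those settings for both probe sets. The settings share most arrays and several set aside the same ones, so their counts are not counts of separate checks.

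The knockout comparisons share the wild-type arrays, so their values are given side by side only. For 1421883_at Sohlh1 knockout against wild type was called in 6 of 27 settings (limma, adjusted p from 0.00456 to 0.294 over the 27). It was called without the 2 arrays of high ratio, at -0.44 (limma, adjusted p = 0.0179, with 3.45% of all called). It was also called without Sohlh2 knockout 1, at -0.40 (limma, adjusted p = 0.0213, with 4.31% of all called). That array is outside this comparison, so leaving it out changed the shared error and not the difference. Without the 2 arrays of doubted label it was not called, at -0.38 (limma, adjusted p = 0.0557). Nor was it called without all 3 arrays, at -0.42 (limma, adjusted p = 0.0646). For 1421882_a_at this comparison was called in 0 of 28 settings (limma, adjusted p from 0.0553 to 0.4985). For 1421882_a_at Sohlh2 knockout against wild type was called in 5 of 28 settings (limma, adjusted p from 0.0279 to 0.591 over the 28). It was called without Sohlh2 knockout 1, at -0.36 (limma, adjusted p = 0.0477, with 1.75% of all called). It was not called without the 2 arrays of doubted label (limma, adjusted p = 0.0583). Between Sohlh2 knockout and Sohlh1 knockout neither probe set was called in any setting, at 0.02 for 1421882_a_at and 0.18 for 1421883_at with all arrays.

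The remaining Elavl2 probe sets were dimmer and, except for 1454454_at in Sohlh2 knockout, more scattered. For 1421881_a_at the signals were 456, 1114, 900 and 618 on the Sohlh1 knockout arrays, 313, 643, 905 and 862 on the Sohlh2 knockout arrays and 690, 1115, 1415 and 1100 on the wild-type arrays. The lowest array of each knockout was again the one of high 3' to 5' ratio, the groups overlapped, and the log2 difference was -0.61 for the mean of both knockouts (limma, adjusted p = 0.283). It was -0.34 without the 2 arrays of high ratio and -0.23 without all 3 arrays, and for Sohlh2 knockout it was -0.72 with all arrays and -0.39 without Sohlh2 knockout 1. Within an array, 1421881_a_at read 20.3% of 1421882_a_at on Sohlh1 knockout 2 and 10.1% on Sohlh2 knockout 1, against 25.0% to 48.3% on the other 10 arrays of the 3 genotypes. The share of 1421883_at in 1421882_a_at did not set those arrays apart: it was 48.3% and 48.6% on them and 39.2% to 52.9% on the others.

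For 1454454_at the signals were 54.8, 89.3, 77.6 and 44.3 on the Sohlh1 knockout arrays, 104, 116, 91.9 and 99.0 on the Sohlh2 knockout arrays and 127, 109, 97.3 and 59.3 on the wild-type arrays. Sohlh2 knockout lay above Sohlh1 knockout without overlap, as 1.9% of all tested probe sets did in either direction, with a log2 difference of 0.57 (limma, unadjusted p = 0.0385, adjusted p = 1). The lowest Sohlh1 knockout array was replicate 5, of doubted label, and this comparison takes the labels as given. Without the 2 arrays of doubted label the difference was 0.42 and without all 3 arrays 0.25, and it was not called in either case. The fifth Elavl2 probe set, 1433052_at, lay above the filter on 0 of 12 arrays and was not tested, with means of 13.9 in Sohlh1 knockout, 23.6 in Sohlh2 knockout and 29.2 in wild type.

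**Figure D2:**
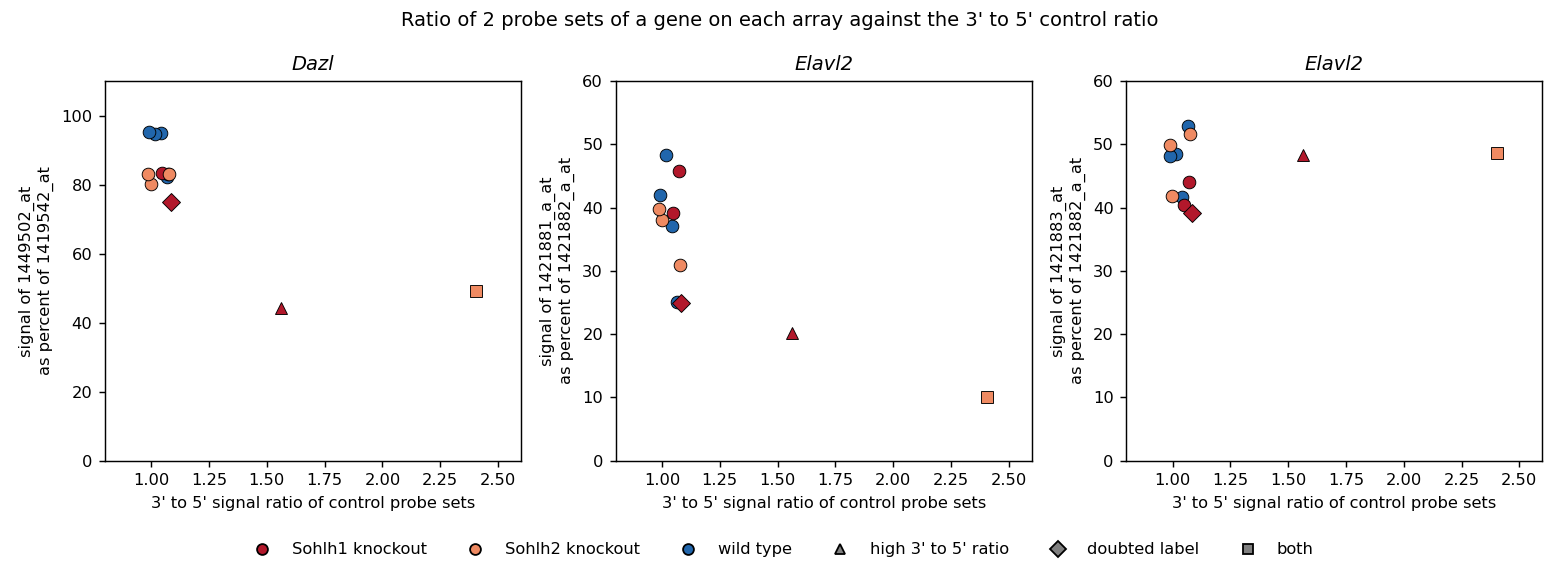
Signal of one probe set as a percent of another of the same gene on the same array (y axes) against the mean 3' to 5' signal ratio of the Gapdh and Actb control probe sets (x axis), 1 point per array. The arrays at ratios of 1.56 and 2.41 have the lowest Dazl 1449502_at shares, 44.2% and 49.2%, and the lowest Elavl2 1421881_a_at shares, 20.3% and 10.1%, but lie inside the range of the other arrays for Elavl2 1421883_at.

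**Figure D3:**
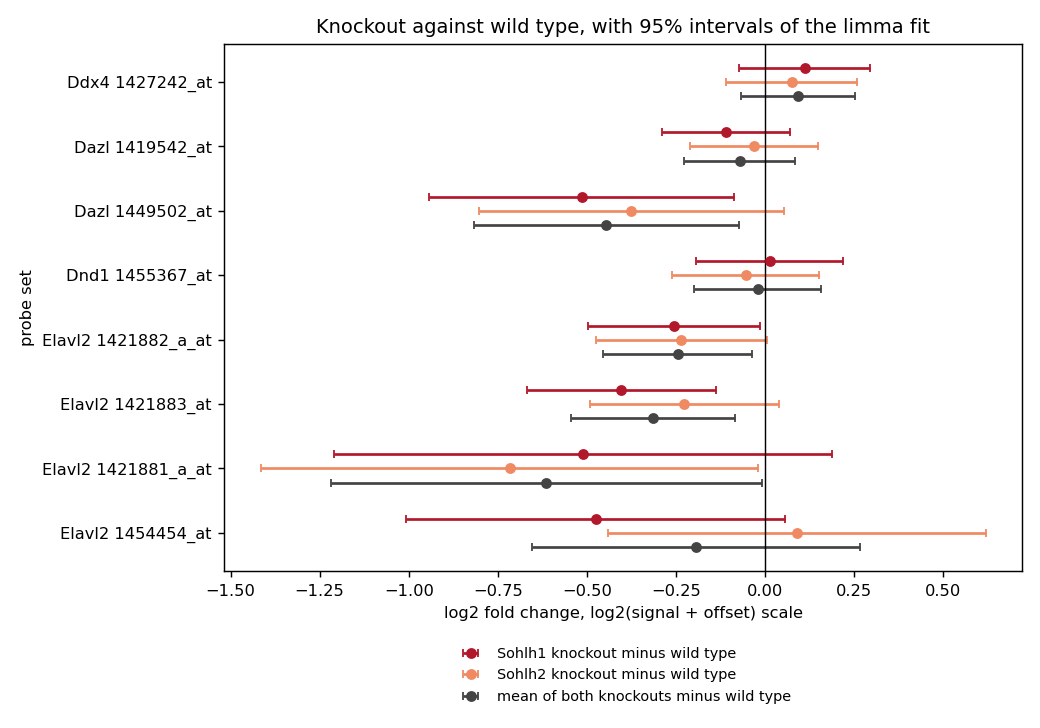
Log2 difference of each tested member probe set with its 95% interval (x axis), for Sohlh1 knockout, Sohlh2 knockout and the mean of both against wild type. The Ddx4, brighter Dazl and Dnd1 differences lie between -0.11 and 0.11 in these comparisons, and the Elavl2 1421882_a_at and 1421883_at differences lie between -0.40 and -0.23.

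For some pairs the correlation between members depended on the 2 arrays of high ratio. Over the 12 arrays, which share the genotype differences and the 2 arrays of high ratio, the Pearson correlation of log2 signals was 0.79 between the brighter pair of Elavl2 probe sets and 0.39 between the Dazl probe sets. The Dazl value was 0.82 over the 10 arrays of low ratio. Ddx4 correlated with the other member probe sets at -0.47 to 0.02, and at -0.45 to 0.02 over those 10. Dazl 1449502_at correlated over all 12 arrays and over those 10 at 0.10 and 0.55 with Elavl2 1421882_a_at, at 0.02 and 0.59 with Elavl2 1421883_at, and at -0.46 and 0.38 with Dnd1. The highest value between genes, 0.88, was that of Dazl 1449502_at with Elavl2 1421881_a_at, the probe sets that were lowest on the arrays of high ratio, and it was 0.71 over the other 10 arrays.

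The genes whose brightest probe sets followed each member most closely were searched among 13698 other tested genes over the same 12 arrays, as a description. For Ddx4 they were Cdkn2aip (r = 0.91), Timm17a (0.89) and Cnep1r1 (0.86), and for Dazl H2-K1 (0.88), Armc6 (0.87) and Cep72 (0.87). For Dnd1 they were Pitrm1 (0.89), Jph4 (0.88) and Akip1 (0.87), all by Pearson correlation. By rank (Spearman) the Jph4 value was only 0.47, against 0.92 for Pitrm1 and 0.76 for Akip1. For Elavl2 they were Styx (0.94), Gpank1 (0.91) and Aen (0.89), with Styx, for instance, averaging 847 in Sohlh1 knockout, 928 in Sohlh2 knockout and 1156 in wild type. Each is among the highest of 13698 values over 12 arrays and carries no test.

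Genes with related roles were then described by their brightest probe set in the mean of both knockouts against wild type, where 4.69% of 13702 genes were called, 1.99% higher and 2.7% lower, and the median log2 difference was 0.03. Of 16 tested germ cell RNA regulators other than the members, 4 rose, 3 fell and 9 did not pass the test, with a median of -0.19. The risers were Gtsf1 (0.91, limma, adjusted p = 0.000438) and Asz1 (0.59, limma, adjusted p = 0.000438), both of the piRNA pathway that silences transposons, the Tudor-domain gene Tdrd5 (0.54, limma, adjusted p = 0.0307) and the DEAD-box helicase gene Ddx25 (0.46, limma, adjusted p = 0.0197). Gtsf1 averaged 4997 ± 893 in Sohlh1 knockout, 5549 ± 836 in Sohlh2 knockout and 2780 ± 246 in wild type (SD, n = 4 each). The fallers were Rbm46, an RNA-binding protein of germ cells (-0.76, limma, adjusted p = 0.000946), Pld6, a mitochondrial protein of the piRNA pathway (-0.70, limma, adjusted p = 0.00124), and Boll.

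Boll belongs to the same gene family as Dazl. Its signals were 117, 224, 216 and 169 on the Sohlh1 knockout arrays, 99.1, 246, 243 and 299 on the Sohlh2 knockout arrays and 322, 419, 478 and 466 on the wild-type arrays. Every knockout array lay below every wild-type array, as was so for 2.98% of all tested probe sets, and the lowest 2 were those of high 3' to 5' ratio. The log2 difference was -1.07 ± 0.24 for the mean of both knockouts (limma, adjusted p = 0.0256), beside -0.07 for the brighter Dazl probe set.

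Other germ cell genes divided in the same manner. Of 17 tested, 2 rose, 3 fell and 12 did not pass the test, with a median of -0.22. Dppa4, a chromatin protein of pluripotent and early germ cells, rose by 1.33 (limma, adjusted p = 1.352e-06) and averaged 1058 ± 44.6 in Sohlh1 knockout, 1051 ± 38.7 in Sohlh2 knockout and 414 ± 50.6 in wild type. Stk31 rose by 0.53 (limma, adjusted p = 0.0019). Tex11, a gene of meiotic recombination (-0.96, limma, adjusted p = 8.686e-05), Nr6a1, an orphan nuclear receptor (-0.66, limma, adjusted p = 0.00994), and Syce1, a part of the synaptonemal complex (-0.43, limma, adjusted p = 0.0121), fell. The summed signal of the 16 RNA regulators was 98.5% of wild type in Sohlh1 knockout and 104% in Sohlh2 knockout, and that of these 17 genes 91.5% and 99.3%. A sum weights bright genes most, and the wild-type sums of the 16 were 25375 to 26860. Gtsf1 alone averaged 2780 in wild type, 4997 in Sohlh1 knockout and 5549 in Sohlh2 knockout. In the mean of both knockouts 10 of the 16 lay below 0 and 6 above.

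Among 8 tested Elavl and DEAD-box relatives of the members 1 rose, the helicase gene Ddx3x (0.44, limma, adjusted p = 0.0171), 0 fell, and the median was 0.20. Among 8 tested genes of known binding partners, such as Pum2 and the deadenylase subunits of the Cnot group, 0 were called and the median was 0.03.

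Markers of the stages of spermatogonia are given beside the members for scale. Of 10 tested genes of differentiating spermatogonia, 7 fell and 0 rose, with a median of -1.92: Crabp1, Kit, Dmrtb1, Lmo1, Esx1, Prss50 and Sohlh1, the last of which is one of the deleted genes. Sohlh2, the other deleted gene, is also among the 10 and was not called, so both enter the median. Kit averaged 453 ± 91.2 in Sohlh1 knockout, 442 ± 76.6 in Sohlh2 knockout and 1739 ± 176 in wild type. Of 15 tested genes of undifferentiated spermatogonia, 3 rose and 2 fell, with a median of 0.32. The risers were Gfra1 (0.99), the GDNF receptor subunit, Pou5f1 (1.17) and Id4 (0.82), and the fallers Sox3 (-1.05) and Neurog3 (-1.09). Without the 2 arrays of doubted label 4 rose and 2 fell. Without the 2 arrays of high ratio 6 rose and 2 fell, and without all 3 arrays set apart above the counts were again 6 and 2. The share of all probe sets called, 3.49% with all arrays, was 4.04%, 5.46% and 4.7% in these settings. These lists were drawn up with earlier results of these arrays known, so their counts are no independent evidence of direction.

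Markers of somatic cells were described in the same comparison. Of 14 Sertoli cell genes tested 0 were called, 13 lay above 0 and the median was 0.10, and their summed signal was 126991 to 144105 in Sohlh1 knockout, 119356 to 134842 in Sohlh2 knockout and 112476 to 133619 in wild type. The sums averaged 111% of wild type in Sohlh1 knockout and 106% in Sohlh2 knockout. For genes of Leydig cells, peritubular myoid cells, endothelium and macrophages, 0 of 7, 8, 8 and 8 tested were called, the medians were -0.06, -0.09, -0.10 and -0.04, and the mean sums lay between 97.6% and 105% of wild type in both knockouts. Their part in the member signals was not tested.

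**Figure D4:**
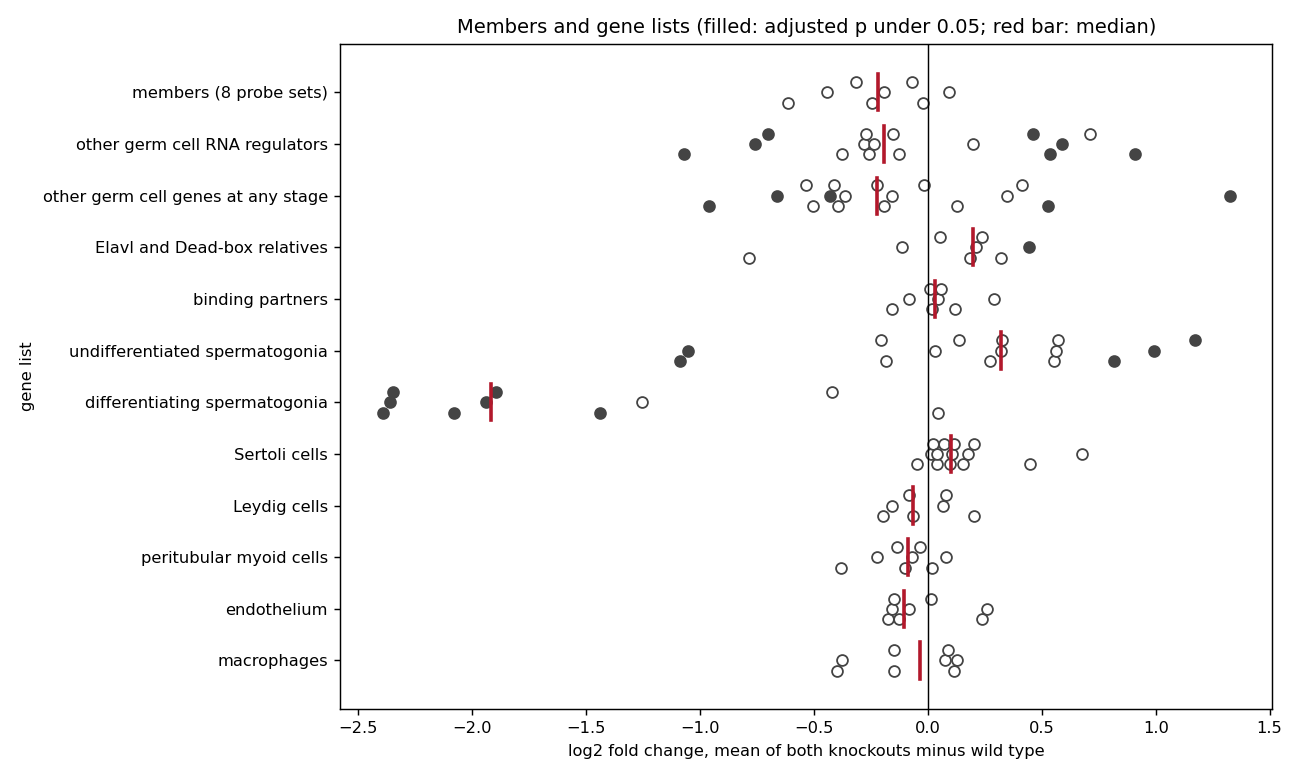
Log2 difference of the mean of both knockouts against wild type (x axis) for each tested gene of the lists (rows), with called genes marked, beside the members. The genes of differentiating spermatogonia, which include both deleted genes, have a median of -1.92, while the medians of the somatic lists lie between -0.10 and 0.10.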

How the data were processed

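The deposited values were linear signal intensities. The submitters' processing notes name GCOS and MAS5 as the authors' software, with no version. In the table each array has the same trimmed mean, 500.003 with 2% removed at each end. Groups came from the sample titles. The 64 control probe sets were left out, and the offset of 14.2 and the filter of 48.6 are the 20th and 40th percentiles of the remaining values. Differences were tested, two-sided, in R 4.3.3 by limma 3.58.1 with a mean-variance trend, in a single model of the 12 arrays that held genotype alone, adjusted by Benjamini and Hochberg over all 28694 probe sets tested. The offset draws fold changes of dim probe sets towards 0. The number of arrays limits the precision, and the spread behind each p-value is that between pooled samples.

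All probe sets of the members are named, with Sohlh1, Sohlh2, Kit and Crabp1. From each list the called genes and up to 4 genes of smallest p could be named, and the 3 genes most correlated with each member. The naming of Boll's values per array, and of Pum2, was chosen after values were seen. The members and lists were chosen with earlier results of these data known. The steps were tested on simulated data. Of 9 pairs of arrays that share a replicate number across genotypes, 1 had deviations correlated above 0.1, so the numbers were not taken as pairing. Alternatives were other offsets, filters, scalings and probe set choices, eBayes without a trend, array weights, fits of only the groups compared, a replicate block, a covariate for the 3' to 5' ratio, and leaving out arrays. Figures were drawn with matplotlib 3.10.9.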

Additional observations from a re-analysis of the deposited data

Results flagged for a closer look

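Of 27 groups of 4 arrays examined, 2 held an array far from the other 3, where chance gives about 1 in 20. For Dnd1, Sohlh1 knockout 2 had a signal of 1178, and its gap to the nearest other array was 0.903 of the range of the group. This array has a 3' to 5' control ratio of 1.56. For Elavl2 1421883_at, Sohlh2 knockout 1 had 1505, and its gap was 0.835 of the range of the group. This array has a ratio of 2.41 and a doubted label.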

How the results depend on the processing

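Of 868 values of the 32 member differences under 28 alternatives, 803 kept their direction and side of the threshold, 26 came to pass it, 0 came to miss it and 39 changed sign, none of them called and none larger than 0.12 on the log2 scale. The cause was not tested in any case. The calls gained were all of Elavl2. As reported, 0 of 8 members were called in each comparison. In Sohlh1 knockout against wild type 1 was called with array weights, with either replicate block, without the arrays of high ratio and with the ratio as a covariate. In Sohlh2 knockout against wild type 1 was called with array weights, with the replicate block that counts 3-1 as 3, without the arrays of high ratio and without all 3 arrays. In the mean of both knockouts 2 were called with array weights, the same replicate block, the ratio as a covariate, and without the arrays of doubted label, of high ratio or of either, and 1 with the replicate block that gives 3-1 its own number. Sohlh1 knockout 2, Sohlh2 knockout 1 and wild type 6 share their numbers with no other array. Either replicate block therefore fits them exactly and takes no difference from them, so the block fits are not separate from those that leave out arrays. The block that gives 3-1 its own number also fits Sohlh2 knockout 3-1 exactly. Its Sohlh2 knockout differences therefore come from replicates 4 and 5 alone. Leaving out 1 array at a time gave 0 to 1, 0 to 1 and 0 to 2 calls in these comparisons and 0 to 0 between the knockouts.

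The count over all probe sets in Sohlh1 knockout against wild type was 600, and became 343 without a trend, 1227 with array weights, 338 with the replicate block that gives 3-1 its own number, 991 without the arrays of high ratio and 1230 with the ratio as a covariate. In Sohlh2 knockout against wild type it was 445, and became 293, 1075, 98, 747 and 789 under the same 5 alternatives, 283 in a fit of only these groups and 767 without all 3 arrays. In the mean of both knockouts it was 1000, and became 1925 with array weights, 526 with that replicate block, 1566 without the arrays of high ratio and 1532 with the covariate. Between the knockouts it was 0 (767 at an unadjusted p under 0.05), and became 9 without the arrays of doubted label and 11 without all 3. Leaving out 1 array at a time gave 230 (without wild type 6) to 1238 (without Sohlh2 knockout 1), 202 (without wild type 4) to 503, 430 (without wild type 6) to 1328, and 0.

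Signs changed as follows. Dnd1 in Sohlh1 knockout became -0.039 with array weights, -0.042 with each replicate block, -0.062 without the arrays of high ratio, -0.072 without all 3 and -0.0096 with the covariate, and ran from -0.062 to 0.042 with 1 array left out. In the mean of both knockouts Dnd1 became 0.021 with median centring and ran from -0.058 to 0.0080. The brighter Dazl probe set in Sohlh2 knockout became 0.0052 with median centring, 0.0064 with array weights and 0.056 and 0.018 with the replicate blocks, and ran from -0.072 to 0.0078. Elavl2 1454454_at in Sohlh2 knockout became -0.060 and -0.11 with the replicate blocks and ran from -0.10 to 0.21. In Sohlh2 knockout against Sohlh1 knockout, Ddx4 became 0.0018 with array weights, 0.037 without the arrays of doubted label and 0.061 without all 3, and ran from -0.076 to 0.015. Dnd1 there became 0.0077 without all 3 and ran from -0.096 to 0.0080. Elavl2 1421882_a_at there became -0.072 with array weights, -0.095 and -0.12 with the replicate blocks, -0.080, -0.12 and -0.10 without the arrays of doubted label, of high ratio and of either, and -0.011 with the covariate, and ran from -0.10 to 0.090. Elavl2 1421881_a_at there became 0.0026 with the replicate block that gives 3-1 its own number and 0.042 without the arrays of doubted label, and ran from -0.43 to 0.12. Dazl 1449502_at there ran from -0.055 to 0.33.

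Same-numbered arrays had deviations correlated at -0.12 to 0.10, against -0.26 to 0.38 for other pairs, and of the 6 Sohlh1 knockout and wild-type arrays with shared numbers 2 correlated best with their own number.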
